A study of Arabidopsis thaliana with 48 samples.

Results

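The 10 genes described here are 3 cold-response regulators and 7 genes grouped here as cold-type targets. The regulators are CBF1 (AT4G25490), CBF2 (AT4G25470) and CBF3 (AT4G25480). The other 7 are COR15A (AT2G42540), COR15B (AT2G42530), COR47 (AT1G20440), KIN1 (AT5G15960), RD29A (AT5G52310), GolS2 (AT1G56600) and GolS3 (AT1G09350). The 10 genes were taken by locus from a table of read counts with 33211 features. All 10 were among the 22252 genes with enough counts to be tested. RNA was taken from the whole aboveground tissue of wild-type Arabidopsis thaliana (accession Col-0, no transgene or mutation in the labels) that was 3 weeks old at the start. Infested plants received 20 adult females of Tetranychus urticae, a spider mite that sucks out leaf cells, and control plants grew alongside without mites, each plant inside a cylinder of its own. Harvests of both kinds of plants at 30 min, 24 h, and 4, 7, 12 and 15 d gave 12 groups of 4 libraries, each library from a pool of 4 plants. The growth chambers were warm and on long days, and the labels describe no cold treatment of grown plants.

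The CBF proteins, also called DREB1 factors, are transcription factors of the AP2/ERF class that bind the C-repeat or dehydration-responsive element (DRE) in front of cold-regulated genes. Their own transcripts are known to appear quickly and briefly when temperature drops, to be limited by the circadian clock to part of the day, and to respond to mechanical disturbance. COR15A and COR15B protect chloroplast membranes during freezing, COR47 is a dehydrin, KIN1 encodes a small hydrophilic protein, and RD29A encodes a hydrophilic protein induced by cold, drought and the hormone abscisic acid (ABA). GolS2 and GolS3 encode galactinol synthases, which make the galactosyl donor for raffinose, a sugar that protects cells from drying and freezing.

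The C-repeat/DRE core, CCGAC, was looked for on both strands of the TAIR10.1 assembly (RefSeq) in the 500 bases before each start codon. The 7 genes are called targets here as a label, and their regulation by the CBF proteins was not tested. Each of the 7 targets had at least 1 match, with 4 in RD29A, 2 each in COR15A and GolS3, and 1 each in COR15B, COR47, KIN1 and GolS2. CBF1, CBF2 and CBF3 had 0. Over all 27443 promoters of this length, 23.3% held a match. One site of each target follows, with the core in capitals, read 5′ to 3′ along the gene's strand; GTCGG is the same core read from the other strand.
COR15A: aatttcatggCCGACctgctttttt
COR15B: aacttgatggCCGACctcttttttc
COR47: tattcatctaCCGACttcaagaaat
KIN1: taaatagctaCCGACataaggcaaa
RD29A: agatatactaCCGACatgagttcca
GolS2: acgtttagtaGTCGGtcgtatttaa
GolS3: tcggccatggGTCGGacaaaataga
The sites of the tandem duplicates COR15A (chr2:17712218-17712242, minus strand) and COR15B (chr2:17710124-17710148, minus strand) lay 266 and 265 bases before the start codon. Those of COR47 (chr1:7085918-7085942, minus strand) and KIN1 (chr5:5209804-5209828, plus strand) lay 268 and 178 bases before it. These 4 sites fall in exons annotated as 5′ UTR, because the annotated transcripts of these genes begin far upstream of the start codon. The sites of RD29A (chr5:21240674-21240698), GolS2 (chr1:21207431-21207455) and GolS3 (chr1:3019424-3019448), all on the plus strand, lay 245, 179 and 454 bases before the start codon and upstream of the annotated gene.

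The same windows were searched for other motifs. ACGTG, the core of the ABA-responsive element (ABRE), was present in all 10 genes and in 34.8% of all promoters. CGCG, the core bound by the calmodulin-binding CAMTA factors, was present in CBF2, COR47, RD29A and GolS2 and in 20.8% of all promoters. AAAATATCT, the evening element bound by clock factors, was present in CBF3, COR15A and COR15B and in 4.01% of all promoters. The 3 CBF genes, which stand in tandem on chromosome 4, share 1 ACGTG match in a similar setting, shown with the core in capitals because it is the motif present in front of all 3 regulators.
CBF1: tgtactatacACGTGtcattcacag
CBF2: tttcttatccACGTGgcattcacag
CBF3: tgtatagtttACGTGgcattaccag
These sites lay 274, 250 and 242 bases before the start codon on the minus strand, at chr4:13022822-13022846 for CBF1, chr4:13016322-13016346 for CBF2 and chr4:13019231-13019255 for CBF3. CBF2 held its CAMTA core nearby, 223 bases before the start codon, in acagaaactcCGCGttcgacccca (chr4:13016296-13016319), and CBF3 held its evening element in ttttgcctctAAAATATCTtccgccatta (chr4:13019175-13019203). A match describes the letters in the window and no more.

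**Figure D1:**
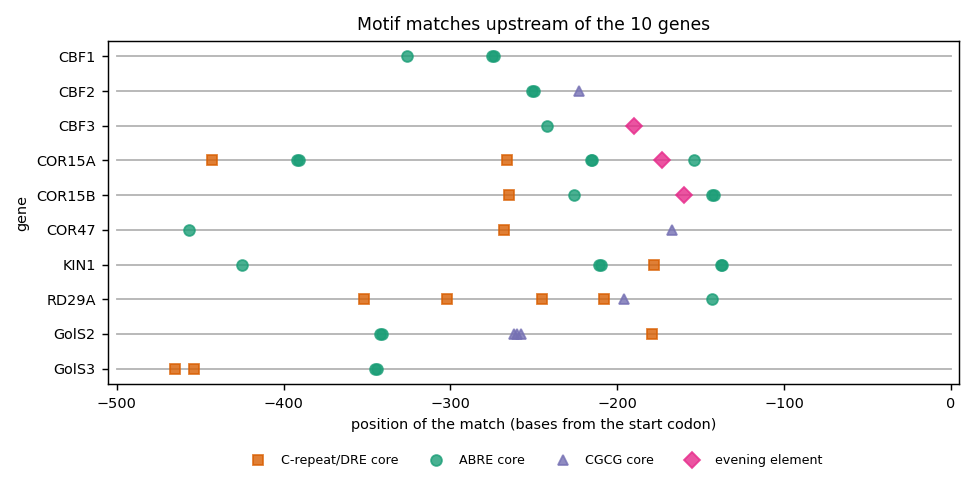
Matches of the 4 motifs (symbols) in the 500 bases before the start codon (x axis, bases from the start codon) of each of the 10 genes (rows), on either strand. Squares, the C-repeat/DRE core, appear in the rows of the 7 targets and in none of the 3 CBF rows, while circles, the ABRE core, appear in every row.

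The 48 libraries held between 12.5 and 23.4 M counts (median 18.9 M). No replicate pair was identical, and all 72 pairs differed by more than sampling noise. Control replicate 1 of 30 min stood apart from its group in several of the 10 genes, with 29.4 CPM of KIN1 against 1.65 to 3.09 in the other control plants of that time, so results of 30 min that turn on it are also given without it. Without this library no call was gained or lost at 30 min for CBF1, CBF2, COR15A, COR15B, COR47, RD29A and GolS3. Levels are counts per M (CPM) after scaling of the library totals by edgeR's TMM method. Leaf markers were abundant in every library (summed level of the 4 genes 11309 CPM or more), and both root markers were at 0 in all 48. In RNA from whole aerial parts, fewer cells of a type and less RNA per cell cannot be told apart.

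The 3 CBF transcripts were far lower in infested than in control plants at 4 and 7 d. At 4 d, CBF1 was at 0, 0, 0.0551 and 0.1003 CPM in infested plants, against 2.32, 3.40, 4.48 and 7.97 CPM in control plants. CBF2 was at 0.276, 0.511, 0.602 and 0.661 CPM in infested plants, against 5.02, 6.15, 6.86 and 16.3 CPM in control plants. CBF3 was at 0.251, 0.276, 0.459 and 0.772 CPM in infested plants, against 2.81, 3.17, 4.02 and 4.35 CPM in control plants. All 4 infested libraries lay below all 4 control libraries for each of the 3 genes. How many of all genes had groups without overlap was not counted. Here and below, a lack of overlap only describes the values. The log2 fold changes were -6.62 for CBF1 (SE 1.00, adjusted p = 3.56e-06), -4.04 for CBF2 (SE 0.64, adjusted p = 8.43e-06) and -3.02 for CBF3 (SE 0.54, adjusted p = 5.59e-05) by edgeR's quasi-likelihood test with Benjamini-Hochberg adjustment over all genes tested. CBF1 had 3 counts in the infested and 331 counts in the control libraries, a ratio of 116 in favour of control plants (95% interval 39.4 to 566, counting error only). No other gene of the 10 passed the test at 4 d, where 0 were higher and 3 lower, beside 8.68% of all genes higher and 7.68% lower.

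At 7 d, CBF1 was at 0, 0.113, 0.114 and 0.291 CPM in infested plants, against 1.71, 2.07, 2.95 and 14.0 CPM in control plants. CBF2 was at 0.171, 0.442, 0.563 and 2.098 CPM in infested plants, against 3.42, 4.23, 7.95 and 18.1 CPM in control plants. CBF3 was at 0.225, 0.228, 0.276 and 0.816 CPM in infested plants, against 1.76, 1.89, 2.36 and 5.10 CPM in control plants. Again no infested library reached the lowest control library of any of the 3 genes, although control replicate 1 was well above the other control libraries and infested replicate 1 above the other infested ones. The log2 fold changes were -5.27 (SE 0.85, adjusted p = 2.04e-05), -3.37 (SE 0.61, adjusted p = 0.000105) and -2.84 (SE 0.57, adjusted p = 0.000356) for CBF1, CBF2 and CBF3. These 6 calls at 4 and 7 d held in every alternative run, with a highest adjusted p of 0.0323. At 12 d the 3 genes still had lower means in infested plants, and the groups overlapped. CBF1 averaged 0.325 ± 0.288 CPM in infested and 1.503 ± 1.43 CPM in control plants (SD, n = 4 each; log2 fold change -2.20, SE 0.76, adjusted p = 0.0422). That call ended without control replicate 1 (adjusted p = 0.284) and without infested replicate 3 or 4 (0.121 and 0.142), as well as with DESeq2 (0.119), in a range over the alternatives of 0.0161 to 0.284. CBF2 and CBF3 were at log2 fold changes of -1.64 and -1.14 and missed the threshold (adjusted p = 0.0503 and 0.0802). Of 14 alternatives, CBF2 passed in 5 (range over all of them 0.011 to 0.173) and CBF3 in 2 (0.0455 to 0.377). The 3 genes were thus not set apart at 12 d by their calls.

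At 4 and 7 d the control plants were high in CBF transcripts compared with the other harvests, and the infested plants were not. The summed level of the 3 CBF transcripts averaged 0.806, 2.71, 0.991, 1.33, 3.28 and 2.04 CPM in infested plants from 30 min to 15 d. In control plants the same sum averaged 2.49, 0.935, 16.7, 16.4, 8.97 and 1.56 CPM. Each of the 3 genes differed among the 6 control times (adjusted p = 1.51e-10, 1.36e-09 and 1.75e-06), as did the other 7 and 85.3% of all genes. Among the 6 infested times CBF1 did not pass (adjusted p = 0.122), while the other 9 genes did, beside 81.7% of all genes. In control plants CBF1 and CBF2 had their highest means at 7 and 4 d, and CBF3 at 12, 4 and 7 d in that order. Control plants of 4, 7 and 12 d overlapped in range with their neighbours in that order for each of the 3 genes.

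At 4, 7 and 12 d the same control pool was the highest for all 3 CBF transcripts. Replicate 1 was the highest control library at 7 d and at 12 d for CBF1, CBF2 and CBF3 alike, and replicate 4 was the highest at 4 d for all 3. At 12 d these highest control values were 3.52, 4.85 and 7.60 CPM. At 30 min replicate 1 was the highest control library for CBF1, CBF2 and CBF3, at 0.0525 CPM (1 count), 1.99 CPM and 3.20 CPM. At 24 h and 15 d the highest control library was a different one for each of the 3 genes. Within groups, over the 48 libraries, Pearson's r was 0.68 between CBF1 and CBF2, 0.48 between CBF2 and CBF3 and 0.28 between CBF1 and CBF3, as a description. Replicate 4 of the control plants at 4 d was also the highest of its group for the summed level of 14 touch and rapid-response genes (975 CPM), while at 7 and 12 d replicates 4 and 2 were the highest for that sum.

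**Figure D2:**
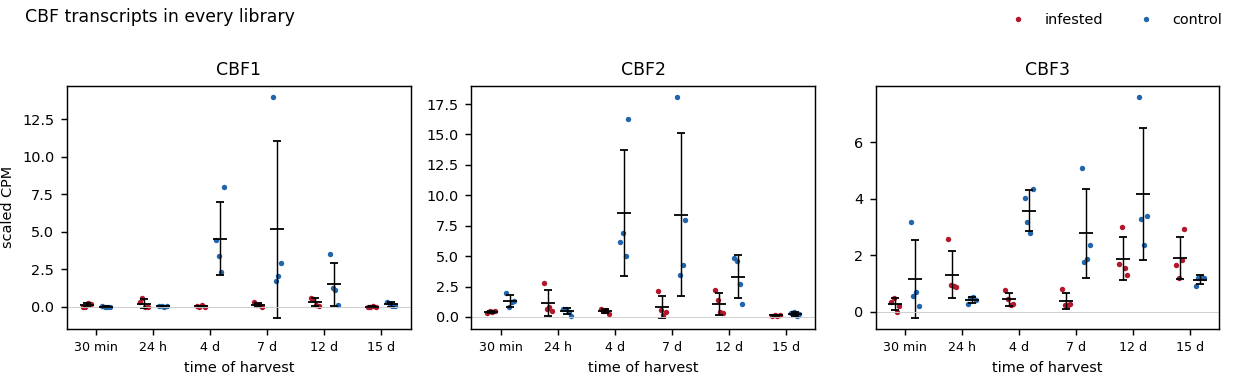
Scaled CPM (y axis) of CBF1, CBF2 and CBF3 in each library (points) at the 6 harvests (x axis), infested plants left of control plants, with the mean and SD of 4 libraries as bars. Control plants of 4 and 7 d stand above infested plants in all 3 panels, with single control libraries reaching 14.0 CPM for CBF1 and 18.1 CPM for CBF2.

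The log2 fold changes of the 3 CBF genes pointed the other way at 24 h, with CBF3 alone called, and were of mixed sign at 30 min. At 24 h, CBF3 was at 0.865, 0.907, 0.945 and 2.57 CPM in infested plants, against 0.287, 0.405, 0.480 and 0.530 CPM in control plants, so that the groups did not overlap. Its log2 fold change was 1.61 (SE 0.59, adjusted p = 0.0432). The call ended without infested replicate 1 (adjusted p = 0.278) or without any 1 of control replicates 1 to 4 (0.112, 0.067, 0.0649 and 0.0855), in a range of 0.00873 to 0.278 over the alternatives. CBF2 was at 1.30 and CBF1 at 2.22 on the log2 scale at 24 h, with adjusted p of 0.228 and 0.322. CBF1 rested on 14 counts in infested and 3 counts in control libraries, a ratio of 5.23 (95% interval 1.46 to 28.4, counting error only). The infested counts were 5, 9, 0 and 0 in replicates 1 to 4.

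At 30 min, CBF3 was at 0, 0.217, 0.361 and 0.501 CPM in infested plants, against 0.221, 0.562, 0.686 and 3.20 CPM in control plants (log2 fold change -2.10, SE 0.69, adjusted p = 0.0214). The 3.20 CPM belonged to control replicate 1, without which the adjusted p was 0.454, and the call also ended without infested replicate 3 or 4 (0.0874 and 0.0595; lowest over the alternatives 0.00409). CBF2 was at 0.289 to 0.507 CPM in infested and 0.797 to 1.99 CPM in control plants with no overlap, and its log2 fold change of -1.62 did not pass (adjusted p = 0.142), though it did in the 8 libraries of 30 min alone (0.00693). CBF1 had 6 counts in infested and 1 count in control libraries at 30 min, a ratio of 8.72 (95% interval 1.06 to 401, counting error only). The infested counts were 0, 0, 3 and 3 in replicates 1 to 4. By edgeR's test, which includes the spread between libraries, its log2 fold change of 2.61 did not pass (SE 2.04, adjusted p = 0.421). At 15 d none of the 3 passed (adjusted p = 0.217, 0.528 and 0.301), and CBF1 was down to 1 count in infested and 13 counts in control libraries.

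In the test of the difference between neighbouring times, consecutive tests share a harvest. Between 30 min and 24 h CBF3 moved up by 3.71 (adjusted p = 0.00458), though not past the threshold without control replicate 1 of 30 min (0.0599). CBF2 moved by 2.92 there and missed the threshold (adjusted p = 0.0758). The test called all 3 CBF genes, downward, between 24 h and 4 d. There the infestation effect changed by -8.84 on the log2 scale for CBF1 (SE 1.88, adjusted p = 0.00207), -5.34 for CBF2 (SE 0.98, adjusted p = 0.000281) and -4.63 for CBF3 (SE 0.81, adjusted p = 0.000114). COR15B passed as well at -1.13 (adjusted p = 0.0256), and these 4 of 10 genes stood beside 3.36% of all genes. Without infested replicate 2 of 24 h the CBF1 change had an adjusted p of 0.0879 (lowest over the alternatives 4.43e-05). The COR15B change ended without any of 6 single libraries, namely control replicates 1 and 4 and infested replicates 1 and 2 of 24 h, and control and infested replicate 4 of 4 d (adjusted p = 0.0828, 0.0795, 0.0832, 0.0584, 0.0875 and 0.072; lowest over the alternatives 0.0098). Over all times together the effect changed for 9 of the 10 genes, all but GolS2 (adjusted p = 0.331), beside 41.1% of all genes.

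COR15A and COR15B, the chloroplast protectants, were higher in infested plants at 24 h. COR15A was at 50.6, 53.3, 76.6 and 79.1 CPM in infested plants, against 22.5, 25.5, 39.3 and 41.2 CPM in control plants. COR15B was at 10.5, 12.24, 14.9 and 16.9 CPM in infested plants, against 3.53, 3.73, 6.37 and 6.45 CPM in control plants. The groups did not overlap for either gene. The log2 fold changes were 1.01 for COR15A (SE 0.35, adjusted p = 0.0303) and 1.43 for COR15B (SE 0.22, adjusted p = 1.47e-06). The COR15B call held in all alternatives run (highest adjusted p = 0.000767), while the COR15A call was lost when infested replicate 1 or 2 (0.0909 and 0.0839) or control replicate 1 or 4 was left out (0.106 and 0.0901; lowest 0.0151).

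At 30 min the log2 fold change of COR15A was -0.54 (adjusted p = 0.291) and turned to 0.30 without control replicate 1 (adjusted p = 0.542), a library with 234 CPM. At 4 d, when the CBF transcripts were at their lowest against control plants, COR15A was at 59.3, 63.8, 68.5 and 83.8 CPM in infested plants, against 38.4, 41.4, 52.7 and 61.9 CPM in control plants. Its log2 fold change of 0.50 did not pass (adjusted p = 0.369), and neither did that of COR15B at 0.31 (adjusted p = 0.397). At 7, 12 and 15 d neither gene passed, with log2 fold changes of -0.70, -0.78 and -0.43 for COR15A (adjusted p = 0.192, 0.116 and 0.411) and -0.29, -0.57 and 0.06 for COR15B. COR15A was at 48.6 ± 10.8 and 60.5 ± 22.3 CPM in control plants of 4 and 7 d, where the summed CBF transcripts were highest, and at 115 ± 37.0 CPM in control plants of 15 d, where that sum was 1.56 CPM. Within groups, over the 48 libraries, Pearson's r with COR15A was 0.30 for CBF1, 0.21 for CBF2 and 0.54 for CBF3, as a description. Over the 12 group means the same r was -0.13, -0.20 and 0.23. The relation of COR15A to the CBF genes was not tested. Across all 12 group means COR15A spanned 3.59-fold, and every neighbour in the order of means overlapped in range. COR15B spanned 5.11-fold and was highest at 30 min, at 17.7 ± 2.38 CPM in infested and 17.8 ± 1.95 CPM in control plants. COR15B shares 468 bases with AT2G42520 on the opposite strand, and the use of strand in counting is not given, so reads of that stretch cannot be told apart.

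**Figure D3:**
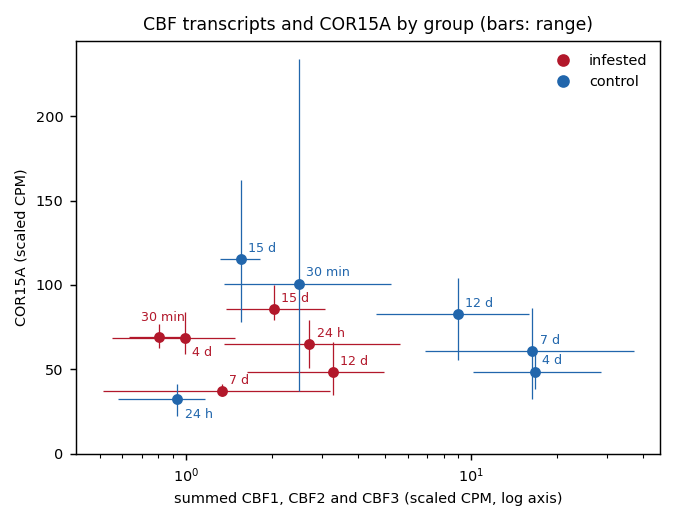
Mean scaled CPM of COR15A (y axis) against the summed mean of CBF1, CBF2 and CBF3 (x axis, log scale) in the 12 groups, with bars from the lowest to the highest of 4 libraries. The control groups of 4 and 7 d lie farthest right at 16.7 and 16.4 CPM of summed CBF and at 48.6 and 60.5 CPM of COR15A, within the COR15A range of the other groups.

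The small hydrophilic protein gene KIN1 had the largest log2 fold change of the 7 targets at 24 h. It was at 2.60, 3.40, 4.91 and 5.89 CPM in infested plants, against 0.265, 0.344, 0.521 and 1.49 CPM in control plants. The groups did not overlap, and the log2 fold change was 2.65 (SE 0.78, adjusted p = 0.0101; at most 0.0407 over the alternatives). At 4 d KIN1 was at 2.41, 2.45, 2.70 and 3.20 CPM in infested plants, against 0.432, 0.469, 0.577 and 1.03 CPM in control plants. That log2 fold change of 2.09 missed the threshold (adjusted p = 0.0751) and passed with DESeq2 (adjusted p = 0.00794) and in the 8 libraries of 4 d alone (4.6e-05).

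At 30 min, KIN1 was at 5.18, 6.49, 6.87 and 11.1 CPM in infested plants, against 1.65, 1.66, 3.09 and 29.4 CPM in control plants. The log2 fold change was -0.28 with all libraries (adjusted p = 0.806) and 1.77 without control replicate 1 (adjusted p = 0.0027), so that 1 library set the direction. KIN1 reads are uncertain, because its neighbour KIN2 (AT5G15970) matches it at 95.8% identity over 144 bases. KIN2, of the list of other cold-regulated genes, rose at 24 h too, with 171 CPM in infested and 49.4 CPM in control plants (log2 fold change 1.79, adjusted p = 1.52e-05), and at 4 d (log2 fold change 0.89, adjusted p = 0.032).

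In all, CBF3, COR15A, COR15B and KIN1 were higher and 0 of the 10 genes lower at 24 h, beside 13% of all genes higher and 10.2% lower. Between 30 min and 24 h the infestation effect changed for 5 of the 10 genes, beside 11% of all genes. It moved up for CBF3 (3.71, adjusted p = 0.00458), COR15A (1.56, adjusted p = 0.0317), COR15B (1.44, adjusted p = 0.000632) and KIN1 (2.93, adjusted p = 0.0419), and down for the dehydrin gene COR47 (-0.78, adjusted p = 0.00266). Without control replicate 1 of 30 min the changes of CBF3, COR15A and KIN1 were 2.47, 0.72 and 0.88 and did not pass (adjusted p = 0.0599, 0.281 and 0.531), so that 2 of the 5 were left. Those of COR15A and KIN1 also ended without other single libraries, with lowest adjusted p over the alternatives of 0.00571 and 0.0091.

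COR47, a dehydrin that coats membranes in drying cells, changed sides between the first and the later harvests. At 30 min it was at 291, 332, 368 and 390 CPM in infested plants, against 209, 219, 220 and 284 CPM in control plants (log2 fold change 0.57, SE 0.13, adjusted p = 0.000598). At 7 d it was at 62.2, 76.5, 82.6 and 85.0 CPM in infested plants, against 115, 131, 172 and 202 CPM in control plants (log2 fold change -1.02, SE 0.13, adjusted p = 1.8e-07). The infested libraries lay above all control libraries at 30 min and below all of them at 7 d. COR47 was also lower at 12 d, with 148 to 186 CPM in infested and 220 to 280 CPM in control plants (log2 fold change -0.52, adjusted p = 0.00325), and at 15 d, with 181 to 254 CPM in infested and 289 to 377 CPM in control plants (log2 fold change -0.57, adjusted p = 0.00145). These 4 calls held in every alternative run, the highest adjusted p being 0.0403. The effect changed between 4 and 7 d by -0.72 (SE 0.18, adjusted p = 0.0166), the only one of the 10 genes to do so, beside 3.57% of all genes. That change ended without control replicate 2 or 3 of 7 d (adjusted p = 0.0585 and 0.081; lowest over the alternatives 0.00231).

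**Figure D4:**
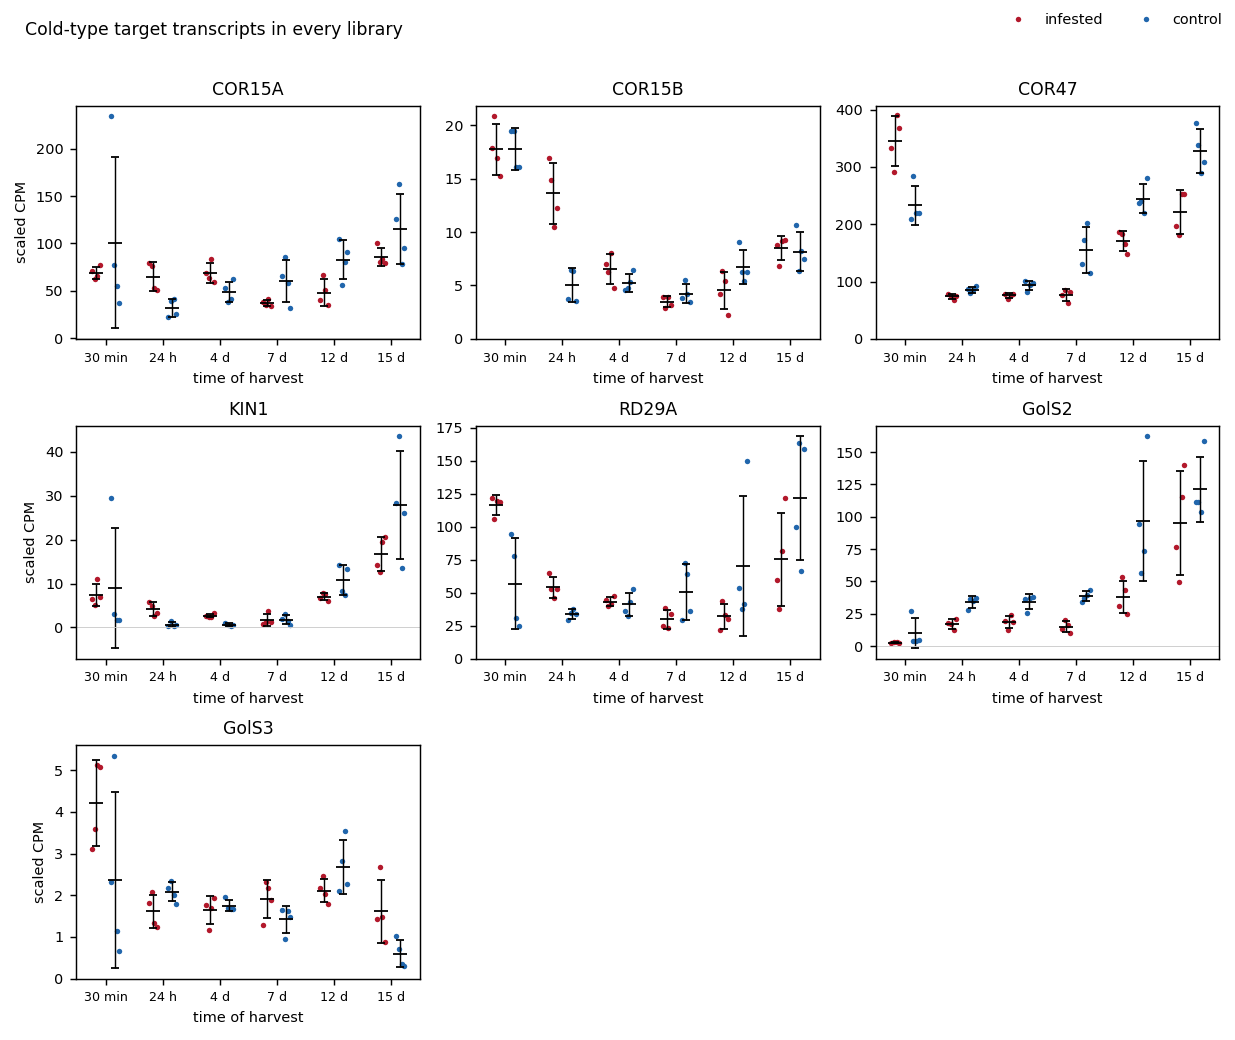
Scaled CPM (y axis, from 0 or just below, a scale for each gene) of the 7 target genes in each library (points) at the 6 harvests (x axis), infested plants left of control plants, with the mean and SD of 4 libraries as bars. Control replicate 1 of 30 min stands far above the other control plants of that time for COR15A (234 CPM), KIN1 (29.4 CPM) and GolS2 (27.1 CPM).

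RD29A was at 106, 119, 119 and 122 CPM in infested plants at 30 min, against 24.9, 30.7, 78.0 and 94.2 CPM in control plants. The groups did not overlap, with a log2 fold change of 1.03 (SE 0.38, adjusted p = 0.0478). Its call was close to the threshold: it ended in 10 of the 14 alternatives run, in a range of 0.0136 to 0.184, among them the fits without infested replicate 1, 2, 3 or 4 (0.087, 0.0598, 0.0846 and 0.0824) or control replicate 3 or 4 (0.17 and 0.184). At 12 d RD29A was at 21.4, 30.12, 33.0 and 44.1 CPM in infested plants, against 38.0, 41.1, 53.5 and 149 CPM in control plants (log2 fold change -1.13, SE 0.39, adjusted p = 0.0407). The highest value, of control replicate 4, carried this call, which had an adjusted p of 0.492 without that library and also ended without infested replicate 1, 3 or 4 (0.12, 0.0758 and 0.0963; lowest over the alternatives 0.0185). At 24 h, 4 d, 7 d and 15 d RD29A was at log2 fold changes of 0.67, 0.07, -0.75 and -0.70 and passed at none of them (adjusted p = 0.241, 0.952, 0.222 and 0.204). At 24 h its groups did not overlap, with 45.9 to 64.6 CPM in infested and 29.3 to 37.9 CPM in control plants, and it passed in the 8 libraries of that time alone (0.000202).

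The galactinol synthase gene GolS2 had its highest mean at 15 d in both kinds of plants, 95.2 ± 40.3 CPM in infested and 121 ± 25.1 CPM in control plants (SD, n = 4 each), and was lower in infested plants at 7 and 12 d. At 7 d it was at 10.3, 13.1, 16.4 and 20.03 CPM in infested plants, against 34.0, 37.4, 39.4 and 43.1 CPM in control plants (log2 fold change -1.36, SE 0.39, adjusted p = 0.0162; 0.063 without infested replicate 4, lowest over the alternatives 0.000435). At 12 d it was at 25.1, 31.1, 43.3 and 53.1 CPM in infested plants, against 56.8, 73.5, 94.0 and 162 CPM in control plants (log2 fold change -1.34, SE 0.37, adjusted p = 0.0111). Neither time showed an overlap between the groups. The 12 d call ended without control replicate 4 (0.0988) or infested replicate 4 (0.0532; lowest over the alternatives 0.00572).

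GolS2 was at 12.27 to 20.7 CPM in infested and 27.7 to 37.2 CPM in control plants at 24 h, and at 12.8 to 23.9 CPM in infested and 25.8 to 38.3 CPM in control plants at 4 d. Those log2 fold changes of -1 and -0.89 did not pass (adjusted p = 0.0628 and 0.121), although neither pair of ranges overlapped, and both passed in the 8 libraries of their time alone (0.000673 and 0.0214). At 30 min GolS2 was at 2.03, 2.60, 3.09 and 3.31 CPM in infested plants, against 3.94, 3.95, 4.63 and 27.1 CPM in control plants (log2 fold change -1.85, SE 0.52, adjusted p = 0.00765). The 27.1 CPM were those of control replicate 1, without which the value was -0.60 and the adjusted p 0.403 (lowest over the alternatives 0.000106).

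GolS3 had the lowest median level over the 12 groups of the 7 targets per length of exon, 1.18 CPM per kb. At 15 d it was at 0.872, 1.43, 1.49 and 2.68 CPM in infested plants, against 0.310, 0.352, 0.706 and 1.01 CPM in control plants. The groups overlapped, and the log2 fold change was 1.45 (SE 0.40, adjusted p = 0.00886). The call ended without infested replicate 2 (0.0887) or control replicate 4 (0.0523; lowest over the alternatives 0.00303). GolS3 passed at no other time. At 30 min it was at 3.10, 3.59, 5.07 and 5.12 CPM in infested plants, against 0.662, 1.14, 2.31 and 5.34 CPM in control plants, with a log2 fold change of 0.81 (adjusted p = 0.0793). The 5.34 CPM were those of control replicate 2, without which the value was 1.61 and passed (adjusted p = 0.00018), as it did with replicate number as a block (0.0331).

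At 30 min COR47 and RD29A were higher in infested plants and CBF3 and GolS2 lower, 2 in each direction, where 13.3% of all genes were higher and 9.71% lower. With library totals as the only scaling, 2506 of all genes were higher and 2735 lower at that time, in place of 2956 and 2160. At 7 d 0 were higher and 5 lower, beside 6.16% and 7.59% of all genes (1371 higher and 1688 lower, and 955 and 2138 with library totals as the only scaling). At 12 d 0 were higher and 4 lower, beside 7.78% and 8.3% (1731 and 1847, and 1003 and 2872 with library totals). At 15 d GolS3 was higher and COR47 lower, beside 8.67% and 9.68% (1930 and 2154, and 1351 and 2823 with library totals). The median log2 fold change of the 10 genes was -0.14, 1.16, -0.20, -0.89, -0.96 and -0.50 from 30 min to 15 d, against -0.01, -0.02, -0.00155, 0.01, -0.02 and -0.02 over all genes. Organ markers differed at 12 d as well: the 4 leaf markers summed to 22810 to 27723 CPM in infested and 16545 to 21151 CPM in control plants (2 called higher), and the 4 floral organ markers to 48.6 to 66.0 CPM in infested and 70.6 to 80.2 CPM in control plants (1 called lower). Their part in the calls of 12 d was not tested. None of the 10 genes changed in effect between 7 and 12 d (adjusted p of 0.153 or more, beside 2% of all genes; 4 at an unadjusted p under 0.05) or between 12 and 15 d (beside 0.706%; 3 at an unadjusted p under 0.05). With DESeq2 they numbered 0 between 7 and 12 d and 1 between 12 and 15 d, which was GolS3 (1.82, adjusted p = 0.0403).

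**Figure D5:**
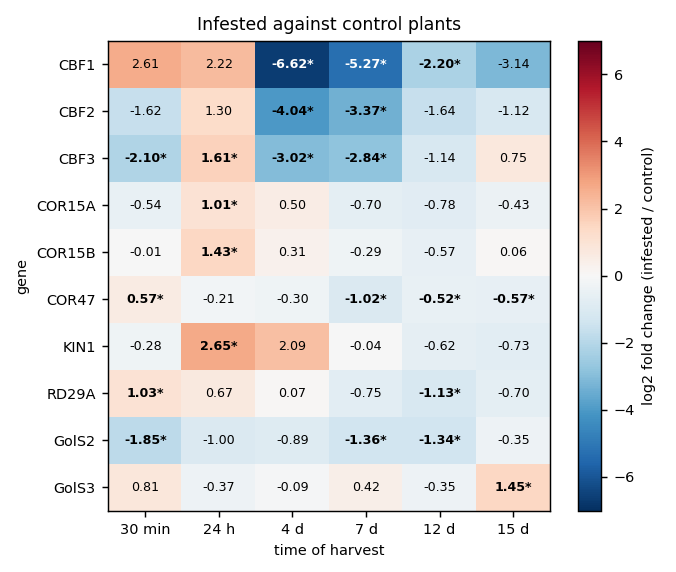
Log2 fold change of infested over control plants (colour and number) for the 10 genes (rows) at the 6 harvests (columns), with an asterisk and bold type where the adjusted p was under 0.05. The blue cells of the 3 CBF rows at 4 and 7 d, between -6.62 and -2.84, are the largest called differences, while at 24 h CBF3, COR15A, COR15B and KIN1 carry asterisks in red.

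Levels can be compared between genes per length of exon. In control plants of 4 d the levels were 3.73, 8.69 and 2.58 CPM per kb for CBF1, CBF2 and CBF3. At the same harvest COR47 was at 40.3, COR15A at 30.7, GolS2 at 24.0, RD29A at 15.5, COR15B at 3.33, GolS3 at 1.13 and KIN1 at 0.758 CPM per kb. In infested plants of 4 d the 3 CBF genes were at 0.0319, 0.520 and 0.316 CPM per kb, below each of the 7 targets. The 3 CBF genes are 78.8% to 84.1% identical over their best matches to each other, so a few reads may be assigned to the wrong copy.

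Genes of the CBF pathway and of neighbouring responses were read from 7 lists, whose choice was made with earlier results of these data known. Over all genes, 13.3% were higher and 9.71% lower at 30 min, and 13% and 10.2% at 24 h. Those shares were 8.68% and 7.68% at 4 d and 6.16% and 7.59% at 7 d. They were 7.78% and 8.3% at 12 d and 8.67% and 9.68% at 15 d. No list was tested against these shares, which stand beside every list count below. The 14 touch and rapid-response genes, which rise within minutes of wounding, touch or a microbial pattern, were all higher in infested plants at 30 min and 9 of them at 24 h. From 4 d on 10, 12, 11 and 10 of them were lower and 0 higher. Their median log2 fold change was 2.88 at 30 min and -1.89 at 4 d, against -0.01 and -0.00155 over all genes. The calcium sensor gene CML37 (AT5G42380) was at 5.32 CPM in infested and 0.197 CPM in control plants at 30 min (log2 fold change 4.71, adjusted p = 1.15e-08). The ethylene response factor gene ERF104 (AT5G61600) was at 2.58 CPM in infested and 48.7 CPM in control plants at 4 d (log2 fold change -4.24, adjusted p = 3.85e-10).

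The summed level of these 14 genes was apart between infested and control plants on the same side as the CBF genes at 4 and 7 d, but not at every time. It ranged from 186 to 237 CPM in infested and 504 to 975 CPM in control plants at 4 d, and from 139 to 248 CPM in infested and 406 to 779 CPM in control plants at 7 d. At 24 h it ranged from 275 to 390 CPM in infested and 91.1 to 129 CPM in control plants. At 30 min, where none of the 3 CBF genes was called higher, it ranged from 1249 to 1593 CPM in infested and 295 to 552 CPM in control plants. It overlapped at 12 d, with 118 to 265 CPM in infested and 222 to 621 CPM in control plants. At 15 d, where none of the 3 CBF genes passed, it ranged from 92.2 to 113 CPM in infested and 292 to 428 CPM in control plants. Its part in the CBF result was not tested.

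DREB relatives and cold factors that act in parallel with the CBFs, 12 of 14 tested, had 9 higher and 1 lower at 30 min and 7 higher and 1 lower at 24 h. At 4, 7 and 12 d 0 were higher and 8, 5 and 4 lower, and at 15 d 1 was higher and 3 lower. The zinc finger repressor gene ZAT10 (AT1G27730) was at 43.9 CPM in infested and 4.98 CPM in control plants at 30 min (log2 fold change 3.13, adjusted p = 3.88e-07), and at 9.56 CPM in infested and 54.8 CPM in control plants at 4 d (log2 fold change -2.52, adjusted p = 9.77e-06). ZAT12 (AT5G59820), a zinc finger gene that acts on part of the cold regulon, was at 16.6 CPM in infested and 1.14 CPM in control plants at 30 min (log2 fold change 3.82, adjusted p = 1.89e-07). The heat shock factor gene HSFC1 (AT3G24520) was at 9.85 CPM in infested and 53.4 CPM in control plants at 7 d (log2 fold change -2.44, adjusted p = 6.23e-09). DDF1 (AT1G12610), a close relative of the CBFs, was at 0.0276 CPM in infested and 0.507 CPM in control plants at 7 d (log2 fold change -3.91, adjusted p = 0.0359). The infested level of DDF1 is near the floor, as 2 counts of CBF1 in infested replicate 2 of 7 d made 0.113 CPM. The size of the DDF1 fall is therefore uncertain.

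Of 15 regulators known to act upstream of the CBF genes, most did not pass at any one time, with 5 higher and 2 lower at 30 min, 4 and 2 at 24 h, 1 and 1 at 4 d, 0 and 2 at 7 d, 4 and 1 at 12 d and 2 and 2 at 15 d. MYB15 (AT3G23250), a repressor of the CBF genes, was at 29.7 CPM in infested and 1.098 CPM in control plants at 30 min (log2 fold change 4.69, adjusted p = 4.32e-07) and at 18.8 CPM in infested and 0.674 CPM in control plants at 24 h (log2 fold change 4.76, adjusted p = 1.39e-06). The kinase gene OST1 (AT4G33950), which stabilises the CBF activator ICE1, fell at 30 min by 0.88 on the log2 scale (adjusted p = 7.59e-07), and CAMTA3 (AT2G22300), a calmodulin-binding activator, rose by 0.62 (adjusted p = 9.18e-06). At 4 d the 2 calls were SOC1 (AT2G45660), a flowering regulator that represses CBF genes, at 0.33 (adjusted p = 0.0133), and PIF7 (AT5G61270), a light-signalling factor, at -0.29 (adjusted p = 0.0318).

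The 19 other cold-regulated genes had 4 higher and 2 lower at 30 min and 6 higher and 0 lower at 24 h. From 4 d on 1, 0, 0 and 0 were higher and 1, 5, 4 and 5 lower. The dehydrin gene ERD10 (AT1G20450), a relative of COR47, was at 458 CPM in infested and 177 CPM in control plants at 30 min (log2 fold change 1.37, adjusted p = 1.54e-07), and at 97.7 CPM in infested and 190 CPM in control plants at 7 d (log2 fold change -0.96, adjusted p = 0.000201). Of the ABA and dehydration genes, 24 of 25 tested, 4 were higher and 5 lower at 30 min, 4 and 1 at 24 h, 0 and 2 at 4 d, 0 and 12 at 7 d, 0 and 16 at 12 d and 0 and 5 at 15 d. Their median log2 fold change was -1.25 at 7 d and -1.28 at 12 d. NCED3 (AT3G14440), which encodes the limiting enzyme of ABA synthesis, was at 10.9 CPM in infested and 63.8 CPM in control plants at 7 d (log2 fold change -2.55, adjusted p = 4.82e-07). RD29B (AT5G52300), the tandem copy of RD29A, was at 0.449 CPM in infested and 31.5 CPM in control plants at 12 d (log2 fold change -6.12, adjusted p = 0.00437). The calls of list genes were not rerun under the alternatives. Without control replicate 4 of 12 d, the library that carried the RD29A call, all genes called at 12 d fell from 3578 to 2381.

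The list of galactinol and raffinose synthesis, of which 8 of 11 genes were tested, had 0 higher and 1 lower at 30 min, 2 and 0 at 24 h and at 4 d, 1 and 2 at 7 d, 0 and 1 at 12 d and 0 and 3 at 15 d. GolS1 (AT2G47180), a relative of GolS2 and GolS3, went the other way from GolS2 at 24 h, 4 d and 7 d, of which GolS2 was called at 7 d only. It was at 502 CPM in infested and 122 CPM in control plants at 24 h (log2 fold change 2.04, adjusted p = 1.15e-05), at 504 CPM in infested and 135 CPM in control plants at 4 d (log2 fold change 1.90, adjusted p = 4.63e-05), and at 230 CPM in infested and 119 CPM in control plants at 7 d (log2 fold change 0.95, adjusted p = 0.0463). Of the 14 clock genes, 3 were higher and 1 lower at 30 min, 2 and 6 at 24 h, 1 and 3 at 4 d and 0 and 3 at 7 d, 1 and 2 at 12 d and 2 each at 15 d. The morning gene CCA1 (AT2G46830) was at 144 CPM in infested and 256 CPM in control plants at 24 h (log2 fold change -0.82, adjusted p = 3.05e-10), at 187 CPM in infested and 251 CPM in control plants at 4 d (log2 fold change -0.43, adjusted p = 0.000145) and at 196 CPM in infested and 243 CPM in control plants at 7 d (log2 fold change -0.31, adjusted p = 0.00718). The hour of harvest is not given in the labels, and the part of the clock in the CBF result was not tested.

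The genes whose log2 CPM followed each member most closely over the 48 libraries were named by Pearson's r, a description over libraries that share groups. For CBF1 they were AT1G23710 (r = 0.91), the ethylene synthesis gene ACS6 (AT4G11280, 0.91) and the transcription factor gene DOF1 (AT1G51700, 0.89), ahead of CBF2 (0.86). For CBF2 they were the ABA-related factor gene MYB96 (AT5G62470, 0.84), AT4G27657 (0.81) and RAP2.4 (AT1G78080, 0.80), all below CBF1. For CBF3 they were the ubiquitin ligase gene PUB19 (AT1G60190, 0.80), EDL3 (AT3G63060, 0.75) and the ABA phosphatase gene PP2CA (AT3G11410, 0.74), while the nearest of the 10 genes was CBF1 at 0.63. The nearest of the 10 genes to GolS2 was CBF3 at 0.63, far below the sodium/proton exchanger gene NHX2 (AT3G05030, 0.97). For KIN1 the nearest was AT3G60690 (0.92), for COR47 AT3G01520 (0.94) and for COR15B the carrier gene APC1 (AT5G61810, 0.88). KIN2 was the third nearest to COR15A (0.79), the late embryogenesis gene LEA14 (AT1G01470) the nearest to RD29A (0.88), and the ferritin gene FER3 (AT3G56090) the nearest to GolS3 at 0.67.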

How the data were processed

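The starting point was 1 table of raw read counts (whole numbers, genes by libraries), which the authors deposited without normalization. Per the submitters' processing notes, the tools were fastp, HISAT2, featureCounts and DESeq2 and the build was TAIR10; no source used here gives their versions or settings, the annotation release or the strand setting. Symbols, positions and sequences were read by locus from the TAIR10.1 assembly (32548 of 33211 features matched). The counts went into edgeR 4.0.16 under R 4.3.3, with filterByExpr, TMM scaling and a robust quasi-likelihood fit that gave each of the 12 groups a coefficient over all 48 libraries. Infested plants were set against control plants at each time, and changes of effect between times were tested as interactions. Tests were two-sided, with Benjamini-Hochberg adjustment over the 22252 genes of each comparison and a threshold of 0.05, after the code had been tested on simulated data. Similar copies of the 10 genes were searched with blastn 2.17.0+. Alternatives were other scalings, no filter, DESeq2 1.42.0, only the libraries of a time, replicate number as a block, and leaving out each library. Genes named from a list were among its 3 largest rises or falls past the threshold at that time, and genes named for likeness were the 3 with the highest Pearson r. The 10 genes and all lists were chosen with earlier results of these data known. Intervals at 95% for count ratios include counting error alone.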

Additional observations from a re-analysis of the deposited data

Results flagged for a closer look

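Among 120 sets of 4 libraries (10 genes in 12 groups), 18 had a library far from the other 3 by Dixon's test at 95%. The nominal 1 in 20 by chance holds for normally distributed values. Levels that rest on a few counts break that condition, so the 18 were not read as an excess. Of the 18 sets, 5 were in infested and 13 in control plants. In infested plants they were replicate 1 of 24 h for CBF2 (2.76 CPM) and CBF3 (2.57 CPM), replicate 1 of 7 d for CBF3 (0.816 CPM), replicate 3 of 7 d for KIN1 (3.81 CPM) and replicate 3 of 15 d for CBF1 (0.0438 CPM, 1 count). In control plants replicate 1 of 30 min was the highest for CBF1 (0.0525 CPM, 1 count), CBF3 (3.20 CPM), KIN1 (29.4 CPM) and GolS2 (27.1 CPM), and replicate 2 of 30 min for COR47 (284 CPM). Later high control values were those of CBF1 at 7 d (14.0 CPM), CBF2 at 4 d (16.3 CPM), RD29A at 12 d (149 CPM), GolS2 at 15 d (158 CPM) and GolS3 at 4 d (1.95 CPM). Low ones were those of CBF1 at 24 h (0 CPM), CBF3 at 15 d (0.909 CPM) and GolS2 at 4 d (25.8 CPM).

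The infestation effect differed between neighbouring times in 10 tests by edgeR's quasi-likelihood test of the interaction. Between 30 min and 24 h the changes were 3.71 for CBF3, 1.56 for COR15A, 1.44 for COR15B, 2.93 for KIN1 and -0.78 for COR47 on the log2 scale. Between 24 h and 4 d they were -8.84 for CBF1, -5.34 for CBF2, -4.63 for CBF3 and -1.13 for COR15B. Between 4 and 7 d the change was -0.72 for COR47.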

How the results depend on the processing

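In the 8 libraries of 1 time alone, 2 of the 10 genes passed at 30 min, 6 at 24 h, 6 at 4 d, 5 at 7 d, 1 at 12 d and 1 at 15 d, and 1979, 2042 and 1148 of all genes at 7, 12 and 15 d (3059, 3578 and 4084 with all libraries). Without a filter 2 of the 10 passed at 12 d, and DESeq2 called 1 change between 12 and 15 d. With each library left out in turn, the 10 genes gave 2 to 5 calls at 30 min, 2 to 4 at 24 h, 1 to 6 at 12 d and 1 to 2 at 15 d. Changes of effect gave 2 to 6 calls from 30 min to 24 h, 2 to 4 from 24 h to 4 d, 0 to 1 from 4 to 7 d and 0 to 1 from 7 to 12 d, the last being COR47 without control replicate 4 of 7 d (0.62, adjusted p = 0.0483). Over all genes the counts were 1997 to 3876 at 7 d, 2381 to 3549 at 12 d and 2103 to 5292 at 15 d. They fell most at 7 d without control replicate 2 (1997) or 3 (2039), at 12 d without control replicate 4 (2381), and at 15 d without infested replicate 2 (2103) or control replicate 2 (2451) or 4 (2483). KIN1 at 30 min lay between -0.62 and 1.77 over the alternatives and changed sign without control replicate 1; the cause was not tested. Among all alternatives for single genes, the infestation effect lost its call in 45 instances and gained one with the same sign in 20. In 1 more, KIN1 at 30 min without control replicate 1, it gained a call with the sign changed. In those 8 libraries the calls that ended were CBF1 at 12 d (adjusted p = 0.149), GolS2 at 30 min (0.169) and 12 d (0.0516), GolS3 at 15 d (0.0804), and RD29A at 30 min and 12 d (0.162 and 0.202). Those gained were CBF2 at 30 min, RD29A and GolS2 at 24 h, and COR47 (0.00302), KIN1 and GolS2 at 4 d.

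Equal replicate numbers did not meet the condition for pairing at any time: 4 of 24 pairs of same-numbered infested and control libraries had deviations correlated over 0.1 (range -0.50 to 0.25), and 9 correlated best with their own number. At 4 d all 4 pairs did so with correlations of 0.03 to 0.08, and at 7 d 3 of 4 pairs did so with 0.14 to 0.25, a hint from the data at those times and not from the design. With replicate number as a block the CBF calls at 4 and 7 d held, the RD29A calls at 30 min and 12 d ended (adjusted p = 0.0522 and 0.0536), and CBF2 and COR15B passed at 12 d (0.011 and 0.0484) and GolS3 at 30 min (0.0331). The change from 30 min to 24 h passed for CBF2 (0.038) and ended for KIN1 (0.0752). In some of the alternatives CBF1, CBF2 at 15 d or CBF3 at 30 min had no test. Leaving out libraries in the tests over all times and in the counts over all genes was chosen after seeing the data. The low levels of CBF1, with 1 to 14 counts in 4 libraries in several groups, limit its early and late values.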

Other observations

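Markers of other organs were read as values only. The 4 leaf markers summed to 16132 to 22479 CPM in infested and 11309 to 16057 CPM in control plants at 15 d, where all 4 were called higher, and to 28439 to 29756 CPM in infested and 33050 to 35143 CPM in control plants at 4 d. The 4 floral organ markers summed to 2.81 to 4.51 CPM in infested and 2.53 to 4.17 CPM in control plants at 30 min, and to 74.0 to 102 CPM in infested and 83.1 to 112 CPM in control plants at 15 d. Of the 5 seed markers the storage albumin gene SESA1 (AT4G27140) was tested. It was at 3.01 CPM in infested and 0.224 CPM in control plants at 30 min (log2 fold change 3.66, adjusted p = 4.94e-05). It was also called higher at 24 h, with 0.743 CPM in infested and 0.0133 CPM in control plants (log2 fold change 5.195, adjusted p = 0.000562), and at 4 d, with 0.217 CPM in infested plants and 0 in control plants (adjusted p = 0.03). The 5 markers together reached at most 4.91, 1.44 and 0.773 CPM in infested plants at 30 min, 24 h and 4 d, and 0.515, 0.212 and 0.176 CPM in control plants. At 15 d they reached 0.613 CPM in infested and 24.17 CPM in control plants.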
